A study of Danio rerio with 4 samples.

Results

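Clade C is the third of the sequence groups into which the study divides the zebrafish odorant receptors (ORs), and it comprises subfamilies or129 to or137. Its genes were taken by symbol alone, pseudogene rows included, which gave 32 genes of the 142 OR rows and of 29029 genes in all. The 4 libraries hold RNA of olfactory sensory neurons (OSNs) sorted from dissected olfactory epithelia of Tubingen/TLF embryos at 48 hpf. The 2 OMP libraries came from RFP-only cells of embryos carrying OMP:RFP, in which the promoter of the olfactory marker protein gene drives the label in ciliated OSNs. The 2 TRPC2 libraries came from Venus-only cells of TRPC2:Venus embryos, in which the promoter of a channel gene of microvillous OSNs drives it. No embryo was treated, and all 4 libraries were made from pooled sorted cells. RNA was amplified through 1 round of in vitro transcription for OMP and 2 rounds for TRPC2, and the TRPC2 sorts held fewer cells, so class, cell number and amplification cannot be told apart. The labels call the libraries biological replicates without naming separate clutches, and p-values therefore measure the spread between these libraries.

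ORs are seven-transmembrane receptors that bind odorants on OSN cilia and signal through an olfactory G protein, adenylyl cyclase and a cyclic nucleotide-gated channel. A mature OSN typically expresses a single OR gene, and OR genes lie in tandem clusters of close relatives. The level of an OR in a pool of OSNs therefore reflects both how many cells chose it and how much RNA each cell makes, and in these bulk libraries fewer cells of a type and less RNA per cell cannot be told apart. Among clade C genes, the study followed the axons of OSNs expressing or130-1 with a transgenic line and probed the or133 subfamily by in situ hybridization. It also traced other ORs by transient transfection, and some of them reached the same target in the olfactory bulb as or130-1, which it links to clade C.

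Reads counted over genes ranged from 49483362 to 84599818 per library. Levels are given as the deposited RPM, that is, reads scaled to one common library total, and are not corrected for transcript length, so the order of genes is an order of reads. A count of 3 reads, taken as the limit below which a gene counts as not detected, corresponds to 0.0278 and 0.0269 RPM in the OMP libraries and to 0.0339 and 0.0356 RPM in the TRPC2 libraries. These limits, and the intervals below, cover counting error only, because amplified reads are not independent molecules, and relatives within a subfamily may share reads. The class labels were checked with marker genes. ompb, the olfactory marker protein gene of ciliated OSNs, was at 185 and 218 RPM in OMP against 0.24 and 6.95 RPM in TRPC2. trpc2b, a microvillous channel gene, was at 2.80 and 3.82 RPM in OMP against 13.5 and 24.2 RPM in TRPC2. trpc2a, its paralog, was at 1.44 and 1.56 RPM in OMP against 11.4 and 0.21 RPM, so the second TRPC2 library was below OMP for this gene. The 9 microvillous OSN markers summed to 1257 and 1185 RPM in OMP against 5851 and 3361 RPM in TRPC2, with none at 0, but gnai2a and gnai1 of this list were higher in both OMP libraries. Red blood cell genes, 9 of 16 listed being present, summed to 10682 and 107107 RPM in OMP against 0.34 and 5.97 RPM in TRPC2, with 7 at 0 in each TRPC2 library. Pigment and neural crest genes, 10 of 11 listed being present, went the other way, at 38.3 and 68.8 RPM against 1326 and 4644 RPM, with 5 and 2 at 0 in TRPC2. The 5 genes of brain neurons and glia summed to 1490 and 1635 RPM in OMP against 113 and 221 RPM in TRPC2, and the 10 skin genes to 4422 and 6796 RPM against 3027 and 2218 RPM. The part of these other cell types in the results was not tested.

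In the OMP libraries 31 of the 32 clade C genes had at least 1 read, 29 of them in both libraries. By their OMP mean 20 genes were above 1 RPM, 6 above 10 RPM and 1 above 100 RPM. The summed level was 297 and 354 RPM, a mean of 326 ± 40.2 RPM (SD, n = 2), and the median over the 32 genes was 1.98 RPM. This total was spread very unevenly. or132-5 alone made up 49.8% of the clade C reads in the first OMP library (95% Wilson interval 49.2 to 50.3%) and 49.0% in the second (48.5 to 49.5%). The 5 highest genes made up 75.8% of the mean level.

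**Figure D1:**
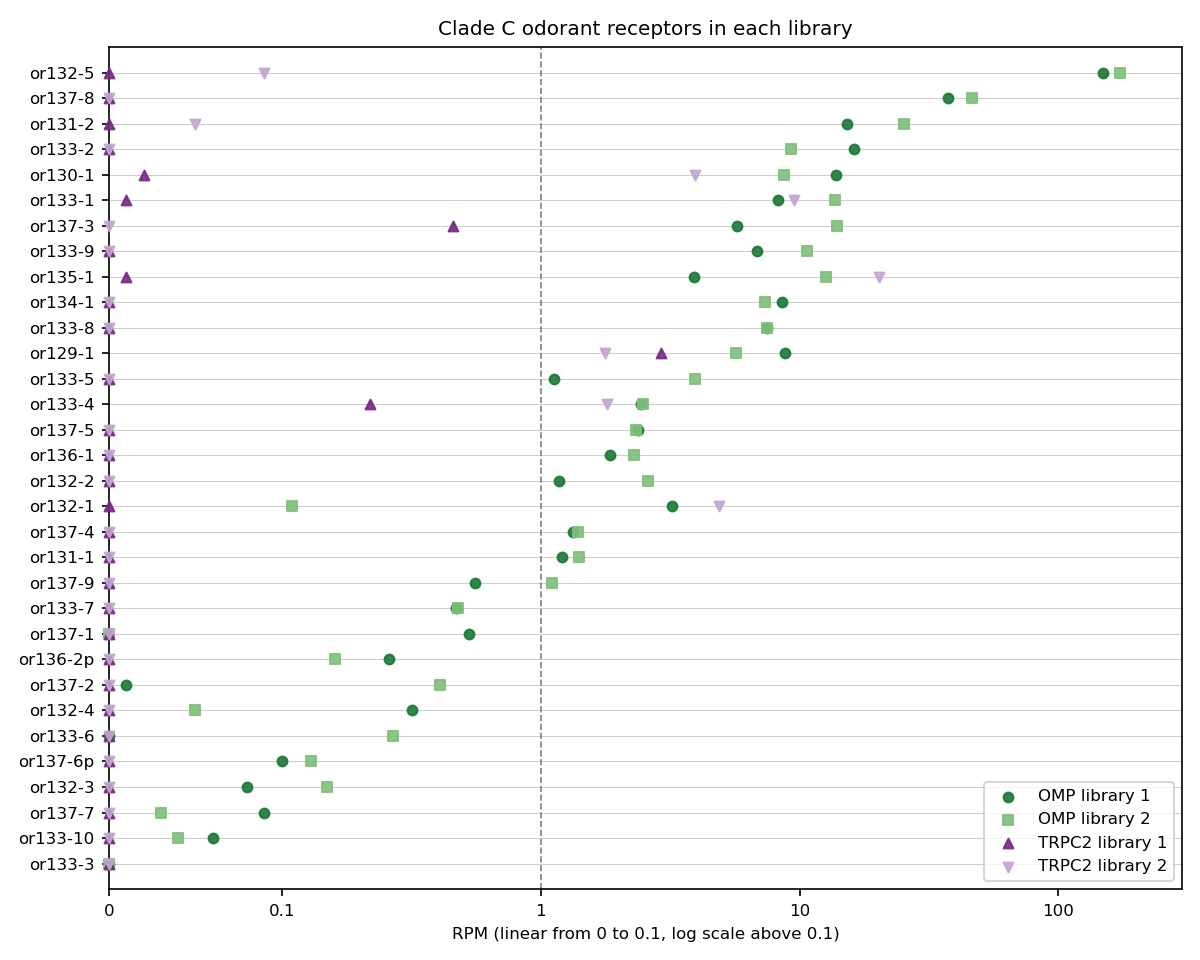
RPM of each of the 32 clade C genes in each library, ordered by the mean of the OMP libraries; the dashed line marks 1 RPM, and the axis is linear below 0.1 RPM and logarithmic above it. or132-5 stands apart at 148 and 173 RPM in OMP, 20 genes have an OMP mean above 1 RPM, and most TRPC2 points lie at 0.

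The or132 subfamily had the highest summed level, at 153 and 176 RPM in OMP over its 5 genes, and or132-5 accounted for 97.7% of it. or132-5 was at 148 and 173 RPM in OMP, with no read in the first TRPC2 library and 8 reads, or 0.09 RPM, in the second. Its relatives were far lower in the same libraries. or132-2 was at 1.18 and 2.59 RPM in OMP with no read in TRPC2. or132-1 was at 3.22 and 0.11 RPM in OMP, a 29.9-fold difference between libraries of the same class, and at 0 and 4.89 RPM in TRPC2. The remaining members, or132-4 and or132-3, had OMP means of 0.185 and 0.115 RPM. Within this subfamily the libraries of or132-5 did not overlap between classes, whereas those of or132-1 did, with the second TRPC2 library above both OMP libraries.

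The or137 subfamily came next, at 48.1 and 65.7 RPM over 9 genes, of which 4 had an OMP mean above 1 RPM. or137-8 was at 37.3 and 46.4 RPM in OMP without a TRPC2 read, and it accounted for 73.6% of the subfamily. or137-3 was at 5.74 and 13.9 RPM in OMP against 0.46 and 0 RPM in TRPC2. These were the only or137 genes above 5 RPM in both OMP libraries. or137-5 was at 2.37 and 2.33 RPM in OMP, and or137-4 at 1.33 and 1.40 RPM, both without a read in TRPC2. Below 1 RPM on average were or137-9, at 0.56 and 1.11 RPM, and 4 further rows with means of 0.060 to 0.265 RPM, the pseudogene row or137-6p among them at 0.10 and 0.13 RPM. or137-1 and or137-2 were each read almost only in a single OMP library. The first had 57 and 0 reads, the second 1 and 46.

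In the or133 subfamily the level was shared more evenly, at 42.9 and 48.5 RPM over 10 genes, with 27.9% from the highest gene. or133-2 was at 16.2 and 9.27 RPM in OMP with no read in TRPC2. or133-1 was at 8.29 and 13.8 RPM in OMP against 0.01 and 9.48 RPM in TRPC2. or133-9 was at 6.83 and 10.7 RPM in OMP without a TRPC2 read. The ranges of all 3 overlapped, although or133-1 was above or133-9 within each OMP library. or133-8 was at 7.46 and 7.49 RPM in OMP with no TRPC2 read. or133-5 was at 1.13 and 3.95 RPM in OMP, again with none. or133-4 was at 2.44 and 2.49 RPM in OMP against 0.22 and 1.81 RPM in TRPC2. Both or133-1 and or133-9 were thus above or133-5 in each OMP library, and or133-4 hardly varied between the OMP libraries. The other members were or133-7, at 0.47 and 0.48 RPM, or133-10, at 0.06 and 0.04 RPM, and or133-6, with 0 and 30 reads. or133-3 was the only clade C gene with no read in any of the 4 libraries, where 3 reads would correspond to at most 0.0356 RPM.

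Subfamilies or129, or130, or134 and or135 hold 1 gene each, and or131 and or136 hold 2. or131-2 was at 15.2 and 25.3 RPM in OMP against 0 and 0.05 RPM in TRPC2, while its relative or131-1 was at 1.21 and 1.41 RPM in OMP with no TRPC2 read. or130-1, the receptor of the transgenic line, was at 13.8 and 8.69 RPM in OMP against 0.02 and 3.94 RPM in TRPC2. Its TRPC2 libraries stayed below both OMP libraries. or134-1 was at 8.52 and 7.36 RPM in OMP with no read in TRPC2. or135-1 was at 3.91 and 12.6 RPM in OMP against 0.01 and 20.4 RPM in TRPC2, the highest clade C level in that class. or129-1 was at 8.75 and 5.69 RPM in OMP against 2.91 and 1.77 RPM in TRPC2, and it was the only clade C gene above 1 RPM in both TRPC2 libraries. or136-1 was at 1.86 and 2.30 RPM in OMP, and the pseudogene row or136-2p at 0.26 and 0.16 RPM, both unread in TRPC2. Every one of the 9 subfamilies thus had a gene with an OMP mean above 1 RPM.

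**Figure D2:**
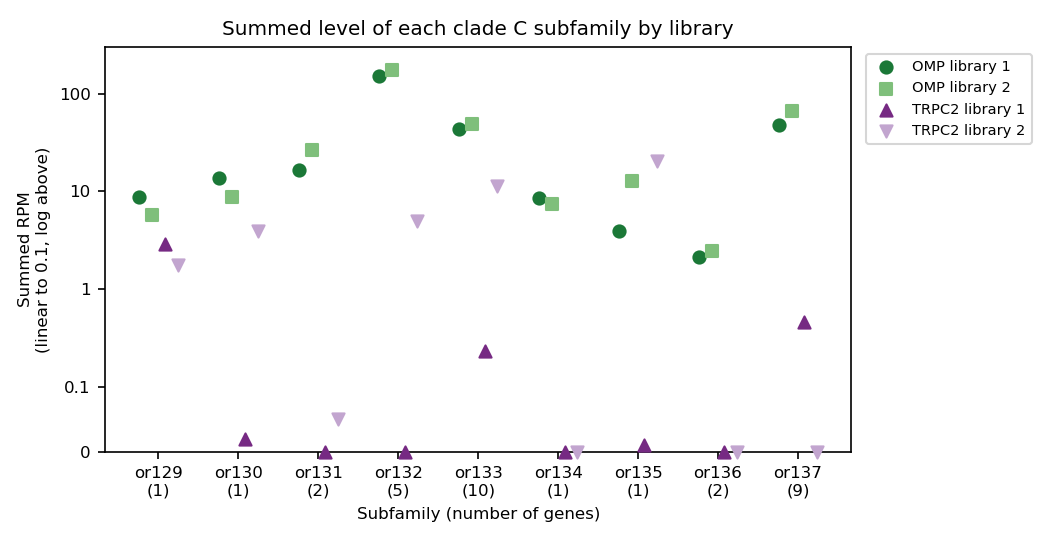
Summed RPM of the 9 clade C subfamilies in each library, with the number of genes in brackets below each name; the axis is linear below 0.1 RPM and logarithmic above it. or132 is highest in OMP at 153 and 176 RPM, and in or135 the second TRPC2 library, at 20.4 RPM, lies above both OMP libraries.

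Ranked by OMP mean, the 20 genes above 1 RPM form 19 pairs of neighbours, and the OMP libraries were separated in 5 of them. or132-5 was above or137-8 in both libraries, and or137-8 above or131-2. Separated here means that the lower library of one gene exceeded the higher library of the next. From or131-2 down to or129-1, 10 genes with means of 7.22 to 20.3 RPM, the ranges of neighbouring genes overlapped. The third separated pair was or129-1 above or133-5, and the last were or133-4 above or137-5 and or137-5 above or136-1. These last pairs were separated only by 2.44 against 2.37 RPM and by 2.33 against 2.30 RPM, so their order is not resolved. The OMP libraries differed from each other more for these genes, as for other ORs, than for the median gene between 1 RPM and the level of or132-5. That set was not matched in level, and 14 of the 20 genes lay between 1 and 10 RPM. The median size of the log2 ratio between the OMP libraries, on log2(RPM + 0.5), was 0.60 over the 20 clade C genes, 0.65 over the 55 other ORs above 1 RPM and 0.31 over the 15729 genes between 1 RPM and the level of or132-5. It exceeded 1 for 4 of the 20 genes, for 11 of the 55 other ORs and for 8.36% of all genes in that range. The 4 were or132-1, or135-1, or133-5 and or137-3.

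Gene order was looked up in RefSeq on a later assembly (GRCz12tu), which was used for names and neighbours only and held 22 of the 32 genes. Some neighbouring genes differed widely in level and others were close. or137-8 lies between or137-3 and or137-4, with an OMP mean of 41.9 RPM against 9.82 and 1.36 RPM. The unread or133-3 lies between or133-4 and or133-2, at 2.46 and 12.8 RPM on average. or129-1 and or130-1, from different subfamilies, are direct neighbours with overlapping OMP levels. The pseudogene or136-2p lies next to or137-2, and both had an OMP mean of 0.21 RPM.

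Clade C was set beside the other OR clades of the study, with 57 genes in clade A (or101 to or114) and 53 in clade B (or115 to or128). Of the clade C genes 62.5% had an OMP mean above 1 RPM, against 54.4% in clade A and 45.3% in clade B, and the medians were 1.98, 1.51 and 0.63 RPM. These differences were not tested. Reads were found in each OMP library for 30 of 32 clade C genes, 47 of 57 clade A genes and 41 of 53 clade B genes. A single gene weighed more in clade C than elsewhere, as or132-5 held 49.3% of its mean level, against 17.4% for or111-11 in clade A and 14.1% for or125-4 in clade B. Of all OR reads, clade C took 20.0% in the first OMP library (95% Wilson interval 19.8 to 20.2%) and 19.3% in the second (19.1 to 19.4%). Without or132-5 its share was 11.1% and 10.9%.

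In the TRPC2 libraries the clade C share of OR reads was 2.26% (2.03 to 2.52%) and 35.5% (34.6 to 36.4%), so that one TRPC2 library was below both OMP libraries and the other above both. The mean share was 19.6 ± 0.495% (SD, n = 2) in OMP and 18.9 ± 23.5% (SD, n = 2) in TRPC2, a difference of 0.75 percentage points (two-sided exact permutation p = 1, where 0.333 is the smallest p that 2 against 2 allows). These shares rest on 14196 and 10070 OR reads in TRPC2, against 160860 and 204671 in OMP.

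**Figure D3:**
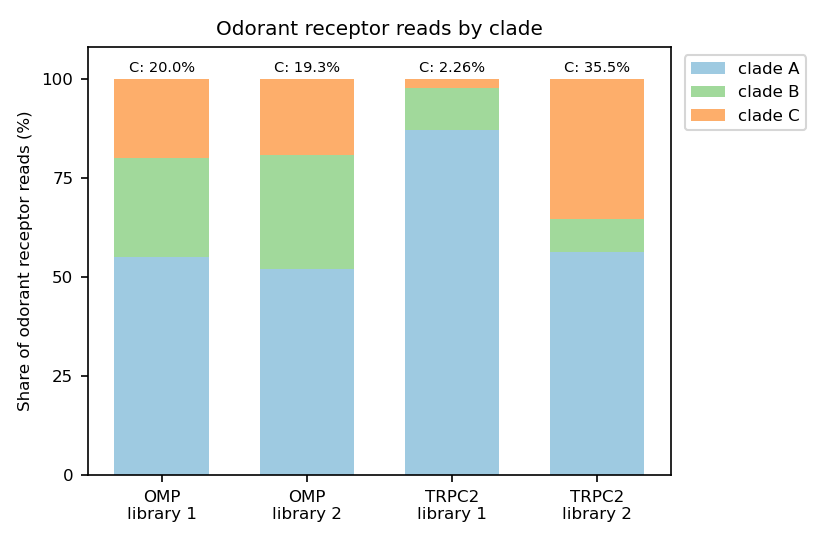
Share of all OR reads in each library that came from clades A, B and C, in percent, with the clade C share printed above each bar. The share is alike in the OMP libraries, at 20.0% and 19.3%, and differs between the TRPC2 libraries, at 2.26% and 35.5%.

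The summed clade C level in TRPC2 was 3.63 and 42.4 RPM, or 1.11% and 13.0% of the OMP mean. At least 1 read was found for 6 and 8 of the 32 genes in the TRPC2 libraries, for 5 in both and for 9 in either. Of all genes 61.6% and 62.0% had a read there, and of the other ORs 15 and 19 of 57 clade A genes and 8 and 9 of 53 clade B genes did. Among the 5 clade C genes read in both, only or129-1 and or133-4 reached 3 reads in each library. In the first, or130-1 had 2 reads, and or133-1 and or135-1 had 1 each, below the limit set above. In the first TRPC2 library or129-1 held 80.1% of the 321 clade C reads. In the second, 6 genes were above 1 RPM, and they held 99.7% of the 3573 clade C reads. These were or135-1, or133-1, or132-1, or130-1, or133-4 and or129-1. The study's methods list the fewest cells of any sort for the second TRPC2 sample, and the part of cell number in these values was not tested. Summed, the same 6 genes, which were picked by their level in that library, were at 42.2 RPM there and at 40.4 and 43.4 RPM in OMP, and the other 26 genes were at 0.14 RPM there and at 257 and 311 RPM in OMP. Levels in the second TRPC2 library did not follow the OMP order. Relative to its own OMP mean, or132-5 was at 0.0560% there, or131-2 at 0.247%, or133-1 at 86.0%, or135-1 at 246% and or132-1 at 294%.

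Markers of ciliated OSNs were read in both TRPC2 libraries. All 9 genes present, of 14 listed, had a read in each, and their summed level was 113 and 92.8 RPM in TRPC2 against 714 and 901 RPM in OMP. The largest parts in TRPC2 came from ano2 and cnga4. Of these, ano2 did not separate the classes, at 38.5 and 26.1 RPM in TRPC2 against 35.3 and 35.1 RPM in OMP. adcy3b was at 0.01 RPM in the first TRPC2 library, below the limit of 3 reads. ompb was higher in the second TRPC2 library, at 3.45% of its OMP mean against 0.119% in the first, and ompa, its paralog, was higher in the first, at 17.3 against 0.44 RPM. The part of ciliated cells in the TRPC2 reads of clade C was not tested.

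**Figure D4:**
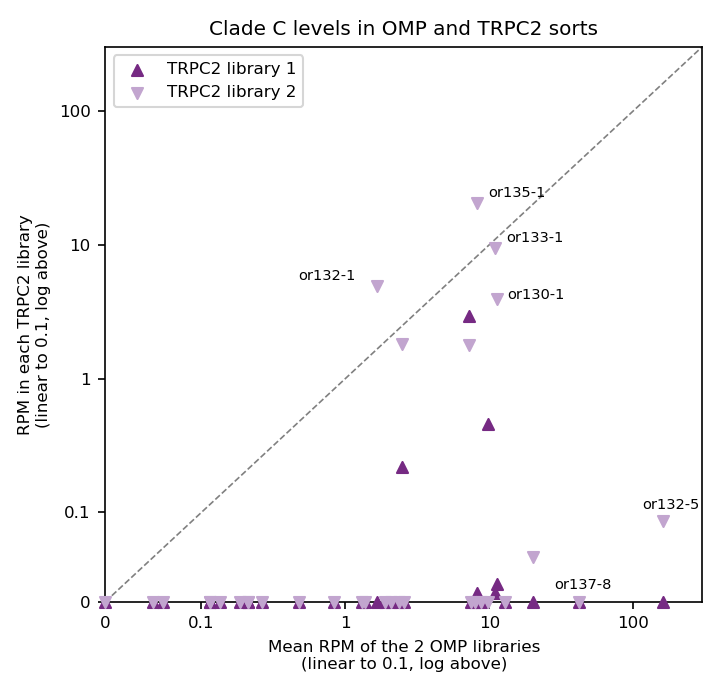
RPM of each clade C gene in each TRPC2 library against the mean of the OMP libraries; the dashed line marks equal levels, and both axes are linear below 0.1 RPM and logarithmic above it. or135-1 and or132-1 lie above the line in the second TRPC2 library, while or132-5 is at 0.09 RPM there and or137-8 at 0.

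For 26 of 32 clade C genes each OMP library exceeded each TRPC2 library, where the same held for 53.3% of all genes, for 37 of 57 clade A genes and for 36 of 53 clade B genes. The opposite held for 0 clade C genes and for 5.61% of all genes. No TRPC2 read was found for 23 of the 32 genes, and for these any read in both OMP libraries sufficed. or137-2, for example, had 1 read in the first OMP library. The 6 that overlapped were or133-1, or135-1, or132-1, or137-1, or133-6 and or133-3, the last 3 with a zero in OMP. Of the 20 genes with an OMP mean above 1 RPM, 11 had no TRPC2 read. This was so for 30 of the 55 other ORs above 1 RPM and for 5.40% of all 16281 genes above 1 RPM. The set of all genes has no upper limit and was not matched in level, whereas 14 of the 20 clade C genes lay between 1 and 10 RPM.

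Folds of genes without a TRPC2 read are lower bounds against 3 reads per TRPC2 library. or137-8 was at least 1204-fold higher in OMP, or133-2 at least 367-fold, or133-9 at least 252-fold, or134-1 at least 228-fold and or133-8 at least 215-fold. Among unread genes with an OMP mean above 1 RPM the lowest bounds were 37.7-fold for or131-1 and 39.3-fold for or137-4, and below 1 RPM the bounds were at most 24.0-fold. Of the 9 genes read in both classes, or132-5 was 3571-fold higher in OMP by mean RPM, or131-2 811-fold and or137-3 42.7-fold. These folds rest on rounded RPM and on 8, 4 and 41 reads in a single TRPC2 library each. The TRPC2 mean of or131-2, 0.025 RPM, lay below the limit of 3 reads, so its fold cannot be ranked against the bounds. The other 6 genes read in both classes lay closer together. or129-1 was 3.09-fold higher in OMP by mean RPM, or130-1 5.68-fold, or133-4 2.43-fold and or133-1 2.32-fold. or135-1 had a ratio of 0.813 and or132-1 of 0.681.

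Classes were compared across all genes with edgeR's quasi-likelihood test on the counts, with fold changes as OMP over TRPC2. The SE printed below was derived as the size of the log2 fold change over the square root of the test's F statistic. Of the 32 clade C genes 24 passed the filter on low counts, 15 of them without a TRPC2 read. These 15 entered only through the OMP reads that set them apart. or132-5, or131-2 and or137-3, with TRPC2 reads in a single library each, also passed on their OMP reads. Counts over the 24 genes are therefore a description. At an adjusted p under 0.05 edgeR called 0 of 24 clade C genes, as it called 0% of all 21026 genes tested. At an unadjusted p under 0.05 it had 17 clade C genes higher in OMP and 0 higher in TRPC2, where 23.3% and 7.18% of all tested genes were. DESeq2 called 13 clade C genes and limma, run on log2(RPM + 0.5), called 12, all higher in OMP, where each called 12.9% of all genes, and neither called any higher in TRPC2. DESeq2 gave no adjusted p for 2 of the 24 genes, and its 12.9% is a share of all 21026 genes. The median log2 fold change was 9.40 over the 24 genes and 0.49 over all tested genes. That estimate depends on how zeros are treated and on the scaling. With library totals only in edgeR the medians were 9.79 and 1.13. Ratios of mean RPM, which carry no TMM scaling, gave medians of 5.36 and 1.27, with genes unread in TRPC2 held at their bound. The medians of these ratios therefore differ from the first in scaling as well as in zeros.

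For or132-5 the log2 fold change was 10.91 (SE 1.44, adjusted p = 0.0721 from edgeR), and for or131-2 it was 8.89 (SE 1.82, adjusted p = 0.0721 from edgeR), each higher in both OMP libraries. They were the only clade C genes with TRPC2 reads at an unadjusted p under 0.05, and both had passed the filter on their OMP reads. The adjusted p of 0.0721 is the smallest that edgeR gave for any gene, and 16 clade C genes shared it. It is a tie that reaches far beyond clade C and ranks no gene. gnal, higher in OMP, and trpc2b, higher in TRPC2, had it too. With the replicate block or132-5 passed 0.05 (adjusted p = 3.2e-11 from edgeR), and so did or137-8 (adjusted p = 1.7e-07 from edgeR). In the same fit or131-2 (adjusted p = 0.0046 from edgeR) and or133-2 (adjusted p = 0.018 from edgeR) passed too. That fit called 329 of all 21026 genes higher in OMP. Its block rests on shared replicate numbers alone, which the study's methods do not tie to a clutch or day. With 4 libraries the added term also leaves little from which to measure spread. All 4 genes had passed the filter on their OMP reads, so these p-values are a description. On leaving out any 1 library the log2 fold change of or132-5 was 9.75 to 16.83 and that of or137-8 was 14.33 to 14.89. With other scalings or filters of edgeR neither passed (adjusted p from 0.0551 to 0.15).

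The other genes with TRPC2 reads did not pass at an unadjusted p under 0.05, and 1 library decided several of them. or129-1 had a log2 fold change of 0.85 (SE 0.94, adjusted p = 0.62 from edgeR). For or130-1 it was 1.67 (SE 2.03, adjusted p = 0.66 from edgeR), and it became 0.55 without the first TRPC2 library and 8.16 without the second. The value for or135-1 was -1.12 (SE 2.41, adjusted p = 0.81 from edgeR). Without the first TRPC2 library it was -2.25, and without the second it was 8.68. or133-1 likewise moved from 0.39 to -0.74 and 9.09, and or132-1 from -1.40 to -2.53 and 10.22, in the same 2 fits. or133-4 moved from 0.46 to -0.52 and 2.77. A class left with a single library was assumed to vary like the other class. In these TMM-scaled fits the sign for or135-1, or133-1, or132-1 and or133-4 thus differed with the TRPC2 library that was kept. In RPM, however, or133-4 was lower in each TRPC2 library than in each OMP library. or133-1 was at 9.48 RPM in the second TRPC2 library, below its OMP mean of 11.0 RPM. With library totals only, the values of or133-4 and or133-1 over all libraries were 1.29 and 1.23. The sign for these genes thus also depends on the scaling.

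Genes of the signal path of ciliated OSNs were taken from a list of 20, of which 12 were present and 11 tested. None of them was called by edgeR at an adjusted p under 0.05, as none of all genes was. At an unadjusted p under 0.05 7 were higher in OMP and 1 in TRPC2, beside 23.3% and 7.18% of all tested genes. DESeq2 called 4 and 1, beside 2717 and 1192 of all 21026 genes, and limma 5 and 1, beside 2706 and 106. The median log2 fold change was 2.76, beside 0.49 over all tested genes. gng13b, a G protein gamma subunit, was at 528 and 491 RPM in OMP against 35.4 and 51.5 RPM in TRPC2. gnal, the olfactory G protein alpha subunit through which ORs signal, was at 118 and 102 RPM in OMP against 6.65 and 12.0 RPM in TRPC2. The libraries of both genes were separated, with every OMP value the higher, but both were picked for a small p in this list. slc24a4a, a sodium-calcium exchanger, went the other way, at 2.30 and 1.27 RPM in OMP against 13.7 and 26.4 RPM in TRPC2. cngb1a, a subunit of a cyclic nucleotide-gated channel, was low throughout, at 0.30 and 0.27 RPM in OMP and at 0 in TRPC2. gnal and gng13b, with OMP means of 110 and 509 RPM, were read in both TRPC2 libraries. Of the 12 list genes present, 3 were at 0 in each TRPC2 library, and the lowly read cngb1a and gng13a were among them. Of the 32 clade C genes, whose median OMP mean was 1.98 RPM, 23 had no read in either.

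Genes with a role in OR choice, OSN differentiation or receptor trafficking, known largely from mouse, came from a list of 25, of which 23 were present and tested. Again 0 were called by edgeR at an adjusted p under 0.05. At an unadjusted p under 0.05 2 of the 23 were higher in OMP and 2 in TRPC2, beside 23.3% and 7.18% of all tested genes. DESeq2 called 2 and 2, beside 2717 and 1192 of all 21026 genes, and limma 2 and 0, beside 2706 and 106. The median log2 fold change was -0.35 with TMM, -0.52 with the size factors of DESeq2 and 0.37 when only library totals were used, where all tested genes were at 0.49, 0.36 and 1.13, so the direction of the list rests on the scaling, and its median was below that of all genes with each of the 3. atf5a, which encodes a transcription factor that in mouse acts in OR feedback, was at 231 and 443 RPM in OMP against 36.4 and 22.6 RPM in TRPC2. ebf3a, of the Ebf transcription factors that bind OR promoters in mouse, was at 397 and 287 RPM in OMP against 723 and 1006 RPM in TRPC2. ddit3, a stress response factor, was at 59.6 and 62.0 RPM in OMP against 133 and 92.4 RPM in TRPC2. ric8b, which encodes a chaperone of the olfactory G protein alpha subunit in mouse, was at 19.2 and 20.6 RPM in OMP against 4.10 and 2.60 RPM in TRPC2. These 4 genes were picked as those with the smallest p in the list, so the separation of their libraries between classes is a description. Its direction differed among them.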

How the data were processed

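OSNs of 48 hpf zebrafish were sorted into 2 OMP and 2 TRPC2 libraries. The authors aligned reads to GRCz10 with STAR, and VERSE gave reads per gene (their versions, the annotation and use of strand: not given in the sources used here). They deposited whole-number counts, and RPM, which the authors scaled to a library total larger than the sum over genes (gene counts are 56.0 to 75.9% of it) and rounded. Counts were compared with edgeR 4.0.16 (quasi-likelihood, TMM, default filterByExpr, class as the only term, Benjamini-Hochberg over all tested genes) in R 4.3.3. DESeq2 1.42.0 and limma 3.58.1 were alternatives, with other scalings and filters, a block for the replicate number and fits lacking each library. The fits were tested on simulated data. The members, lists and tests were chosen with earlier results of these data known. Named are clade C genes above 1 RPM in OMP on average or in a TRPC2 library, mapped or probed genes, pseudogene rows, the unread gene, class genes and the 4 list genes with the smallest p. Other genes, such as the remaining members, ompa, or111-11 and or125-4, were named after their values were seen.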

Additional observations from a re-analysis of the deposited data

How the results depend on the processing

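The number of clade C genes called higher in OMP, 0, was 13 with DESeq2, 12 with limma at a pseudocount of 0.5 RPM, 15 at 0.1 RPM, 4 with the replicate block and 2 to 20 after leaving out a library, where omitting the first or second TRPC2 library gave 16 or 20. It stayed 0 with other scalings or filters. In TRPC2 it was 0 to 1 after leaving out a library. The 17 genes at an unadjusted p under 0.05 became 7 to 22. Counts over all genes moved too. Of all 21026 genes, limma at 0.1 RPM called 4345 higher in OMP and the replicate block 329. Leaving out any library raised the number called higher in OMP among clade C genes and among all genes, so that rise was not particular to clade C. Such fits leave 1 library in a class, and their counts are not given. At an unadjusted p under 0.05 clade C and all-gene numbers both fell without an OMP library. Without a TRPC2 library all-gene numbers rose, and clade C numbers did not fall. Clade C genes tested numbered 20 to 31 across settings, against 24 above. The block rests on shared numbers alone: deviations from the class means correlated at -0.000507 between libraries of equal number, and 2 pairs decide nothing. The median log2 fold change, 9.40, was 9.79 when only library totals were used, 8.39 with DESeq2, 2.34 and 4.10 with limma, 7.39 without a filter, 10.01 for genes of at least 100 counts in 2 libraries and 8.39 to 9.26 after leaving out a library. Of 22 named genes fitted, 18 kept their direction under each alternative that tested them (or136-2p and or137-6p were below the filter of 100 counts, and or137-6p was not tested without the second OMP library). The value of or135-1, -1.12, was 1.22 and 2.25 with limma, 2.46 under the block, and between -2.25 and 8.68 on leaving out a library. That of or132-1, -1.40, was 0.24 with limma at 0.1 RPM, 0.80 under the block, and between -5.29 and 10.22. or133-1 ranged from -0.74 to 9.09 and or133-4 from -0.52 to 2.77. The summed OMP level, 326 RPM, was 469 over gene totals and 510 over gene totals without globin genes, and 297 to 354 in single libraries. In TRPC2 it was 3.63 to 42.4. The clade C share of OR reads in OMP, 19.6%, was 11.0% without or132-5 and 19.3 to 20.0% in single libraries, and in TRPC2 2.26 to 35.5%. For none of these was the cause tested. Levels per kb of coding length were not run, since no coding lengths were used here. At 2 libraries a class, no exact test of a single value can pass 0.05.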
